A study of Mus musculus with 10 samples.

Results

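The genes described here are 8 signals that organise lymphoid clusters, chosen by name from the 21877 gene symbols of the deposited count table. They are 3 chemokines (Cxcl13, Ccl19 and Ccl21a), the 2 receptors that read them (Cxcr5 and Ccr7), 2 lymphotoxin subunits (Lta and Ltb) and the lymphotoxin receptor Ltbr. The rule that lists them uses no measured value, but it was written with earlier results of these data known. All 8 were detected in every library and all 8 passed the filter on low counts.

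In lymphoid tissue, stromal cells make CXCL13, which draws in CXCR5-bearing B cells, and CCL19 and CCL21, which draw in CCR7-bearing T cells and dendritic cells. Lymphocytes and lymphoid tissue inducer cells carry membrane lymphotoxin, built from the LTα and LTβ subunits. It engages LTβR on stroma, which acts largely through the noncanonical NF-κB pathway and raises the expression of these chemokines. The omentum and other serous linings hold small lymphoid clusters, called milky spots or fat-associated lymphoid clusters, in which CXCL13 is known to recruit B cells.

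RNA was measured by sequencing in the peritoneum of male C57BL/6 mice, either Mr1+/+ or Mr1-/-, that had been injected into the peritoneal cavity with PBS or with an equal volume of 4.25% peritoneal dialysis (PD) fluid over 6 weeks. MR1 presents microbial metabolites to MAIT cells, a class of innate-like T cells, and PD fluid is the glucose-based solution used in peritoneal dialysis. By the labels, each Mr1+/+ group had 3 libraries and each Mr1-/- group had 2. They give no age, no dosing schedule, no account of how Mr1 was deleted, and nothing on which part of the peritoneum was taken or whether a library is 1 mouse, so the spread behind every p-value is that of these samples and may be a technical one.

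Library totals lay between 14145635 and 16335799 counts. Replicates 1 and 2 of Mr1+/+ PBS were nearly identical (chi-square per gene 2.23), as were replicates 1 and 2 of Mr1-/- PD fluid (1.74), whereas the other 6 pairs of libraries within groups gave 18.6 to 118. Both near-identical pairs were summed and each was taken as a single sample. With these merged, n was 2 for Mr1+/+ PBS, 3 for Mr1+/+ PD fluid, 2 for Mr1-/- PBS and 1 for Mr1-/- PD fluid, 8 in all. Mr1 itself lay between 21 and 32.5 CPM (counts scaled to a common library size) in the 5 Mr1+/+ samples and between 1.96 and 2.45 CPM in the 3 Mr1-/- samples (exact two-sided permutation test, p = 0.0179, the smallest this design allows). The mesothelial gene Upk3b was present in every sample (26.0 to 184 CPM). Mr1+/+ PBS replicate 3 stood apart: its 10 intestinal epithelial markers summed to 2322 CPM, led by Muc2 at 663 CPM, against 24.4 to 35.8 CPM in the other 7 samples, and its 8 pancreatic acinar markers summed to 21483 CPM. Pancreatic transcripts were present in every sample, at 123 CPM in Mr1+/+ PD fluid replicate 1, 235 to 555 CPM in the PBS samples other than that library, and 2697 to 4285 CPM in the remaining 3 PD fluid samples. Red blood cell markers were higher with PD fluid in Mr1+/+ mice, with 3 of 5 tested called and sums of 18.1 and 35.6 CPM under PBS against 84.8 to 240 CPM. Their part in the results was not tested.

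The sequences shown first are 2 upstream windows that hold NF-κB-type motifs, since lymphotoxin receptor signals act through that factor. Of the 8 genes, 6 had a RefSeq promoter entry (GRCm38.p6, 300 bases each). Both windows lie on the plus strand and end before the first annotated base of the gene, and capitals mark the motif match.
Cxcl13, chr5:95956789-95956938: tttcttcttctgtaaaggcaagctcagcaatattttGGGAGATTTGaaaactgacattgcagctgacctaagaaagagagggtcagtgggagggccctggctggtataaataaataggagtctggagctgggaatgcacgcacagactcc
Ltb, chr17:35194289-35194438: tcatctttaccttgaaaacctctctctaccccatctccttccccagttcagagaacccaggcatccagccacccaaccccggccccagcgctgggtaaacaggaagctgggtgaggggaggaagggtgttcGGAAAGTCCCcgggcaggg

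The Cxcl13 match, GGGAGATTTG, fits the consensus for dimers of the noncanonical NF-κB subunits RelB and p52, and is known as such a site in this promoter. It begins 114 bases before the RefSeq start. Searching both strands, that consensus was found in 120 of 32851 mouse promoter windows of the same length (0.365%). The Ltb match, GGAAAGTCCC, fits the canonical NF-κB consensus on the minus strand and begins 87 bases before the RefSeq start, and the canonical consensus was found in 8.46% of promoter windows. The 2 matches lie in different windows and do not overlap. Neither consensus was found in the windows of Ccl19, Ccl21a, Lta or Ltbr, which says only that these letters are not there. The matches are descriptions of sequence and were not tested as binding sites.

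A second set is shown because it bears on how far 2 of the chemokine counts can be trusted. Ccl21a (chr4:42772860-42773993, minus strand, coordinates of GRCm38, the build named mm10 in the submitters' processing notes) has near-identical copies on chromosome 4. Over the 402 bases of the annotated Ccl21b transcript, Ccl21a and Ccl21b differ at 2 bases, T159A and C269T, with Ccl21a's base first and positions counted from the first base of its GENCODE M21 transcript. Both lie in coding sequence, in exons 2 and 3. Capitals mark the base that differs.
Ccl21a, first site: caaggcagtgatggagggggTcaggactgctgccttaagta
Ccl21b, first site: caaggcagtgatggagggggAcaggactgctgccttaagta
Ccl21a, second site: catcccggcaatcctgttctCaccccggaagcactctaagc
Ccl21b, second site: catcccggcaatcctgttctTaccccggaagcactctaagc

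The copy Gm10591 carries the same 2 substitutions, and 15.4% of all 100-base windows of the Ccl21a transcript occur unchanged in each of these copies. For the longer copies Gm13304 and Gm21541, 49.2% and 50.3% of such windows do. In the table, the summed counts of the copies reached at most 27 in a library, so nearly all reads of the family were assigned to Ccl21a, by a counting rule that is not given in the sources used here. Ccl19 (chr4:42754525-42756577, minus strand) has copies of the same kind, of which Gm2564 shares 58.7% of its 100-base windows unchanged. Levels of Ccl21a and Ccl19 are therefore uncertain as to which copy they come from. The other 6 genes are Cxcl13 (chr5:95956951-95961068, plus), Cxcr5 (chr9:44511787-44561877, minus), Ccr7 (chr11:99144196-99155077, minus), Ltbr (chr6:125306571-125313885, minus), and the neighbours Ltb (chr17:35194439-35196320, plus) and Lta (chr17:35203165-35205351, minus), which flank Tnf. The last bases of Cxcr5 overlap Bcl9l on the opposite strand, and no step that marks the strand is named in the labels' protocols.

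The 8 genes differed widely in level. Per kilobase of annotated exon, Ccl21a was highest, with a mean of 1067 CPM per kb over the 8 samples (877 to 1245). Ccr7 (147, range 104 to 190) and Ltb (123, range 90.5 to 186) came next and overlapped each other. Cxcl13 (53.3, range 29.2 to 84.0), Cxcr5 (38.7, range 24.0 to 67.7), Ccl19 (31.7, range 25.1 to 40.8) and Ltbr (25.7, range 18.1 to 37.5) overlapped as neighbours in that order. Lta was lowest at 7.79 CPM per kb (5.48 to 10.8) and did not overlap Ltbr. Across the 8 samples the highest CPM exceeded the lowest 1.42-fold for Ccl21a and 2.87-fold for Cxcl13, with the other 6 genes in between.

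**Figure D1:**
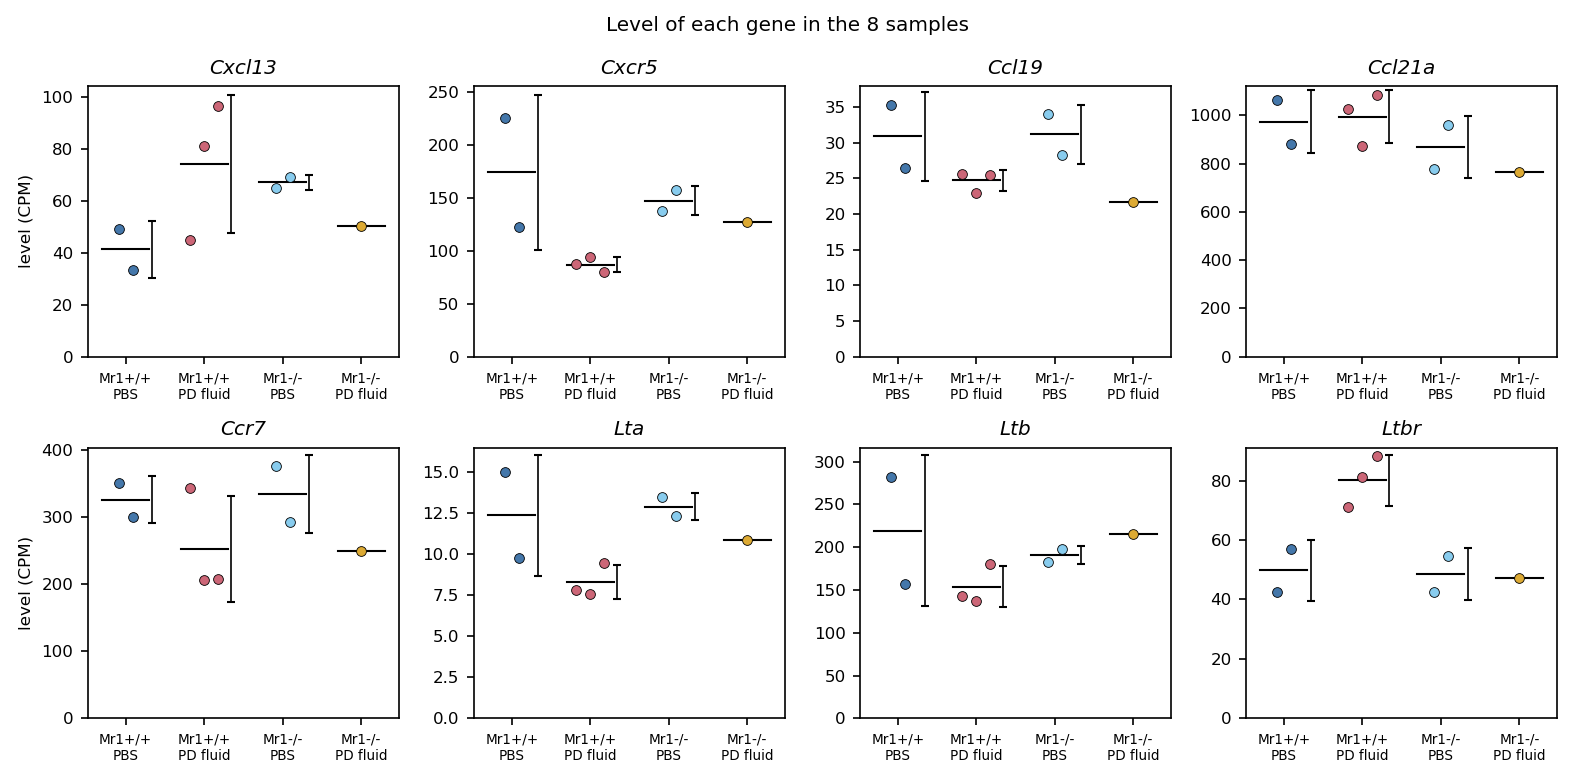
Each panel plots 1 gene's level in CPM (counts scaled by TMM library sizes, linear axis from 0) for the 8 samples in 4 groups. Points are samples, horizontal lines group means and vertical bars ± 1 SD, absent for Mr1-/- PD fluid, which is 1 sample. The 3 Mr1+/+ PD fluid samples lie below both Mr1+/+ PBS samples for Cxcr5 and above them for Ltbr, while Ccl21a overlaps.

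The first question of the design is what PD fluid did in Mr1+/+ mice. Of the 8 genes, Cxcr5 fell and Ltbr rose, and the other 6 did not pass the test (edgeR quasi-likelihood test with Benjamini-Hochberg adjustment over 15385 genes, called at an adjusted p under 0.05). Among all genes tested 14.9% were called, 8.49% higher and 6.37% lower, so 1 of 8 in each direction is not far from that background. The median log2 fold change of the 8 was -0.35, against -0.06 over all genes.

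Cxcr5 encodes the receptor that brings B cells and follicular helper T cells to CXCL13. Its level was 226 CPM in Mr1+/+ PBS replicates 1 and 2 and 122 CPM in replicate 3, and 87.1, 94.1 and 79.8 CPM in the 3 Mr1+/+ PD fluid samples. All 3 PD fluid samples lay below both PBS samples, and they were close to each other while the PBS samples were not. The group means were 174 ± 73.0 CPM (SD, n = 2) and 87.0 ± 7.15 CPM (SD, n = 3), and the fitted log2 fold change was -1.0 (SE 0.24, adjusted p = 0.0309). The fall was 2.0-fold. The call was lost without PD fluid replicate 1 (adjusted p = 0.0671), replicate 2 (0.0871) or replicate 3 (0.126), with log2 fold changes between -0.95 and -1.05. Leaving out Mr1+/+ PBS replicate 3 leaves 1 sample in that group, and the log2 fold change was then -1.37.

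Markers of B cells moved in the same samples. Of 12 B cell markers, 11 fell and none rose in this comparison, with a median log2 fold change of -1.05. Without PD fluid replicate 2 only 2 were called and without replicate 3 none, as for all genes, with medians of -0.97 and -1.0. Their summed level was 2998 to 4784 CPM under PBS and 1805 to 2024 CPM under PD fluid. Pax5, the B cell identity factor, went from 441 and 293 CPM to 134, 130 and 95.0 CPM. Measured relative to the mean log2 CPM of the 12 markers, Cxcr5 stood at -0.61 and -0.87 under PBS and at -0.83, -0.56 and -0.76 under PD fluid. The difference of the means, 0.03 log2 units, was smaller than the pooled SD of 0.16. Relative to Pax5 and Cd79a alone, a pair of markers chosen after the values were seen, the difference was 0.38. In tissue RNA, fewer cells of a type and less RNA per cell cannot be told apart.

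Cxcl13, the ligand of CXCR5, did not follow its receptor. It measured 49.2 and 33.6 CPM in the Mr1+/+ PBS samples and 45.1, 81.4 and 96.6 CPM in the PD fluid samples. PD fluid replicates 2 and 3 lay above both PBS samples and replicate 1 lay between them. The log2 fold change was 0.84 (SE 0.33, adjusted p = 0.120), which did not pass the test. It passed without PD fluid replicate 1 (1.10, adjusted p = 0.0214) and in DESeq2 (0.84, adjusted p = 0.0308).

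The 2 genes are easiest to read side by side as a ratio within each sample, where library scaling cancels. There were 21.8 and 27.5 Cxcl13 counts per 100 Cxcr5 counts in the Mr1+/+ PBS samples, and 51.7, 86.5 and 121 in the PD fluid samples. The Mr1-/- PBS samples gave 47.2 and 44.2 and the Mr1-/- PD fluid sample 39.6. The Mr1+/+ PBS samples were thus the lowest and the Mr1+/+ PD fluid samples the highest, with the 3 Mr1-/- samples between them. This ratio was chosen after the values were seen and was not tested.

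Of the lymphotoxin genes, the receptor was called with PD fluid in Mr1+/+ mice and the ligand subunits were not. Ltbr, which is expressed on stromal and myeloid cells and not on lymphocytes, measured 42.6 and 57.1 CPM in the Mr1+/+ PBS samples and 71.2, 81.1 and 88.2 CPM in the PD fluid samples. All 3 PD fluid samples were above both PBS samples. The group means were 49.8 ± 10.2 CPM (SD, n = 2) and 80.2 ± 8.55 CPM (SD, n = 3), and the log2 fold change was 0.69 (SE 0.19, adjusted p = 0.0455), a 1.61-fold rise. The call was lost without PD fluid replicate 2 (adjusted p = 0.104) or replicate 3 (adjusted p = 0.143), at 0.70 and 0.61.

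Markers of fibroblasts and fat cells rose in the same Mr1+/+ samples as Ltbr. Of 10 fibroblast markers 9 rose, and their summed level went from 1514 to 1837 CPM under PBS to 4259 to 5500 CPM under PD fluid. Of 10 adipocyte markers 9 rose, from 3641 to 4337 CPM to 10419 to 16621 CPM. Of each list 5 were called without PD fluid replicate 2 and none without replicate 3. Relative to the mean log2 CPM of the fibroblast markers, Ltbr was at -0.98 to -0.90 in the Mr1+/+ PBS samples and lower, at -1.93 to -1.77, in the PD fluid samples. This relative level was added after the values were seen, and the part of these cells in the Ltbr result was not tested.

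Ltb, the subunit that anchors the lymphotoxin heterotrimer in the membrane, measured 282 and 157 CPM in the Mr1+/+ PBS samples and 143, 137 and 181 CPM in the PD fluid samples. The groups overlapped, and the log2 fold change was -0.51 (SE 0.24, adjusted p = 0.179). Lta, the other subunit, measured 15.0 and 9.76 CPM under PBS and 7.81, 7.58 and 9.46 CPM under PD fluid, without overlap but with little distance between the nearest samples. Its log2 fold change was -0.58 (SE 0.24, adjusted p = 0.132). Both passed the test without Mr1+/+ PBS replicate 3, Ltb at -0.87 (adjusted p = 0.0195) and Lta at -0.85 (adjusted p = 0.0446), and that library is the one with intestinal transcripts and the highest pancreatic sum.

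The count ratio of Ltb to Lta lay between 13.6 and 19.9 in all 8 samples, and between 16.1 and 19.1 in the 5 Mr1+/+ samples. Tnf, which lies between them on chromosome 17, measured 7.32 and 4.28 CPM under PBS and 4.15, 9.59 and 7.91 CPM under PD fluid. Those groups overlapped. Ltbr per 100 Ltb counts, a ratio chosen after the values were seen and not tested, went from 15.1 and 36.4 under PBS to 49.8, 59.1 and 48.8 under PD fluid in Mr1+/+ samples, and was 23.2, 27.7 and 21.9 in the 3 Mr1-/- samples.

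None of the 3 genes of the CCR7 arm passed the test. Ccl21a, the chemokine of lymphatic vessels and T cell zone stroma, measured 1065 and 881 CPM in the Mr1+/+ PBS samples and 1024, 872 and 1084 CPM in the PD fluid samples. The groups overlapped fully, and the log2 fold change was 0.03 (SE 0.18, adjusted p = 0.922), with a sign that turned in other settings. Of the 7 lymphatic endothelial markers other than Ccl21a, Pdpn rose and none fell, with a median log2 fold change of 0.48. Among all genes 8.49% were called higher. None of the 7 was called without Mr1+/+ PBS replicate 2 or without PD fluid replicate 1, 2 or 3. Pdpn is also counted in the stroma and venule list below.

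Ccl19, the second CCR7 ligand, measured 35.3 and 26.5 CPM under PBS and 25.6, 23.0 and 25.5 CPM under PD fluid in Mr1+/+ mice. The PD fluid samples lay just under the lower PBS sample (log2 fold change -0.32, SE 0.18, adjusted p = 0.236). The estimate was -0.51 without Mr1+/+ PBS replicate 3, which leaves 1 sample in that group. Ccr7 measured 351 and 301 CPM under PBS and 344, 206 and 208 CPM under PD fluid, so that PD fluid replicate 1 lay with the PBS samples and the other two below them (-0.37, SE 0.25, adjusted p = 0.329). Without PD fluid replicate 1 the Ccr7 estimate was -0.65 (adjusted p = 0.0583), and without replicate 2 or 3 it was -0.22 or -0.25. Of 12 T cell markers 4 fell and none rose, with a median of -0.78. Without PD fluid replicate 1, 6 fell, and none did without PD fluid replicate 2 or 3. The median was -1.07 without Mr1+/+ PBS replicate 3. Relative to the 12 B cell markers, Ccr7 was 0.56 log2 units higher under PD fluid (pooled SD 0.30), Ltb 0.50 (pooled SD 0.23) and Lta 0.42 (pooled SD 0.17), each given as a description without a test. Relative to Pax5 and Cd79a alone these differences were 0.91, 0.86 and 0.77. Levels relative to the 12 T cell markers were added after the values were seen. There, Lta lay at -3.08 to -3.05 under PBS and -3.24 to -2.48 under PD fluid, and Ltb at 0.94 to 1.15 and 0.94 to 1.76, both with overlap. Ccr7 lay at 1.46 to 1.88 under PBS and 1.93 to 2.20 under PD fluid.

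**Figure D2:**
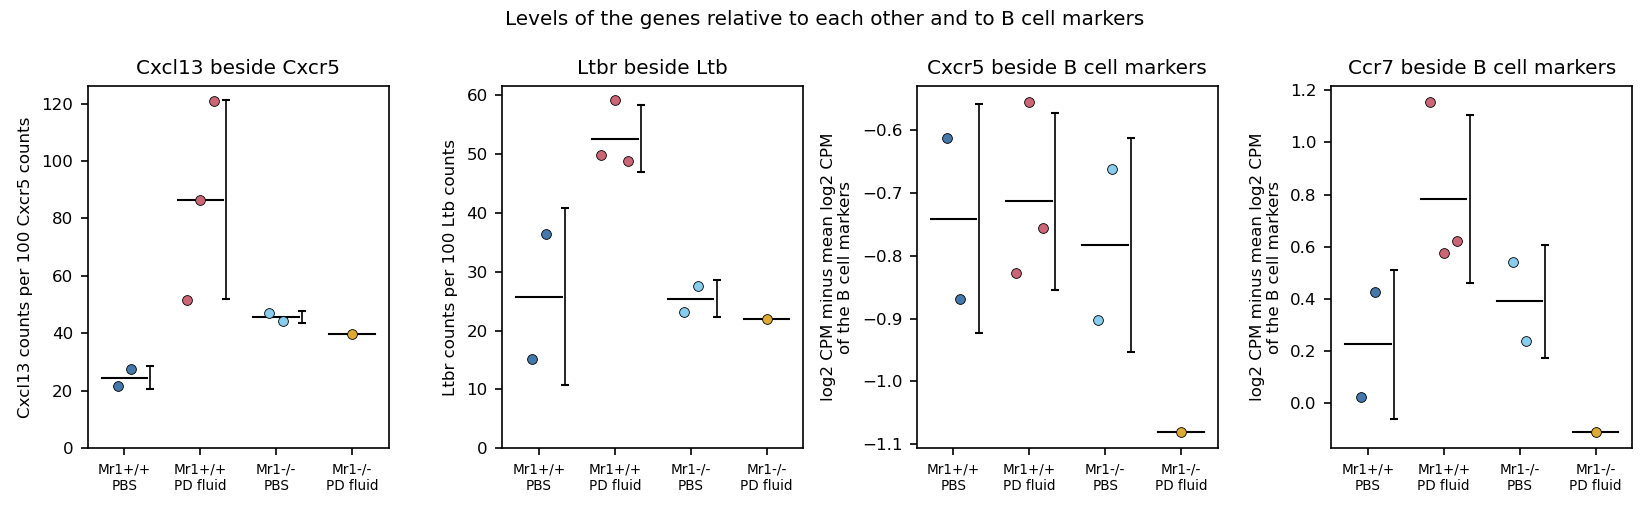
The 2 panels on the left plot counts of Cxcl13 per 100 counts of Cxcr5 and of Ltbr per 100 counts of Ltb, on linear axes from 0. The 2 on the right plot log2 CPM of Cxcr5 and of Ccr7 minus the mean log2 CPM of 12 B cell markers, on axes that do not start at 0. Points are the 8 samples, lines group means and bars ± 1 SD. Both ratios are highest in the Mr1+/+ PD fluid samples, and Cxcr5 relative to B cell markers overlaps between Mr1+/+ PBS and PD fluid.

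Non-overlap between groups was common in these data. Of the 8 genes, 4 had no overlap between Mr1+/+ PBS and Mr1+/+ PD fluid samples (Ltbr higher; Cxcr5, Ccl19 and Lta lower), against 50.7% of all genes tested. The 2 groups of 2 and 3 samples cannot give an exact permutation p below 0.1.

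In Mr1-/- mice no gene of the 8 passed the test for PD fluid against PBS in edgeR, and 0% of all genes did. None of the 8 had an unadjusted p under 0.05 there, and DESeq2 called none of them, against 1.5% and 0.179% of all genes. Cxcr5 measured 138 and 157 CPM under PBS and 127 CPM under PD fluid (log2 fold change -0.21, SE 0.32). Ltbr measured 42.5 and 54.7 CPM under PBS and 47.3 CPM under PD fluid (-0.04, SE 0.25). The PD fluid sample lay between the PBS samples for Ltbr and just below both for Cxcr5. Cxcl13 measured 65.1 and 69.3 CPM under PBS and 50.4 CPM under PD fluid (-0.42, SE 0.43).

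Ltb measured 183 and 198 CPM under PBS and 216 CPM under PD fluid, and Lta 13.5 and 12.3 CPM against 10.9 CPM. Ccl21a measured 779 and 960 CPM against 763 CPM. Ccl19 measured 34.1 and 28.3 CPM against 21.7 CPM (-0.52, SE 0.25) and Ccr7 376 and 293 CPM against 250 CPM (-0.42, SE 0.34), estimates at least as large as that of Cxcl13. For 7 of the 8 genes the single PD fluid sample lay outside the 2 PBS samples, against 56.7% of all genes tested. With 1 sample under PD fluid, this comparison assumes that it varies like the other groups. The 12 B cell markers summed to 3312 to 3379 CPM under PBS and 3578 CPM under PD fluid, and the 12 T cell markers to 1351 to 1372 CPM and 1270 CPM. The 10 fibroblast markers summed to 1435 to 1940 CPM under PBS and 2943 CPM under PD fluid, higher although Ltbr was not. Relative to them Ltbr stood at -1.23 to -0.43 under PBS and -1.75 under PD fluid. The 10 adipocyte markers summed to 4349 to 6446 CPM and 5299 CPM.

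The interaction term tests whether the change with PD fluid differed between genotypes. None of the 8 genes passed it in edgeR or in DESeq2, and 0% of all genes passed it in edgeR. Ltbr had an unadjusted p under 0.05 and the other 7 did not, against 13.2% of all genes. The interaction was -1.26 for Cxcl13 (SE 0.55, adjusted p = 0.385), -0.73 for Ltbr (SE 0.31, adjusted p = 0.374), 0.79 for Cxcr5 (SE 0.40, adjusted p = 0.425) and 0.69 for Ltb (SE 0.41, adjusted p = 0.472). Without Mr1+/+ PBS replicate 3, with 1 sample left in that group, it was 1.16 for Cxcr5 and 1.05 for Ltb. A difference between the genotypes in the response of these genes was therefore not established by this test.

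Between genotypes under PBS, none of the 8 passed the edgeR test, none had an unadjusted p under 0.05 and DESeq2 called none. The shares of all genes were 0.013%, 8.64% and 1.37%. Cxcl13 had the largest estimate, 0.70 (SE 0.35, adjusted p = 0.579), with both Mr1-/- PBS samples (65.1 and 69.3 CPM) above both Mr1+/+ PBS samples. It was the only one of the 8 without overlap, against 38.6% of all genes. The other 7 had log2 fold changes between -0.24 and 0.06. Leaving out Mr1+/+ PBS replicate 3 leaves 1 sample in that group. The estimate was then -0.61 for Cxcr5, -0.56 for Ltb and 0.45 for Cxcl13, and those of the other 5 lay between -0.29 and 0.19.

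Under PD fluid, none of the 8 passed the edgeR test between genotypes, against 0.013% of all genes. Ltbr came nearest, at 47.3 CPM in the Mr1-/- sample and 71.2 to 88.2 CPM in the 3 Mr1+/+ samples (-0.76, SE 0.24, adjusted p = 0.175). It was the 1 gene with an unadjusted p under 0.05 and was the 1 that DESeq2 called (adjusted p = 0.0414). Of all genes, 19.1% had such an unadjusted p and DESeq2 called 10.7%. Cxcr5 was 127 CPM in the Mr1-/- sample, above the 79.8 to 94.1 CPM of the Mr1+/+ samples (0.55, SE 0.30, adjusted p = 0.351), and Ltb was 216 CPM, above 137 to 181 CPM (0.49, SE 0.30, adjusted p = 0.416). The Mr1-/- sample lay outside the Mr1+/+ samples for 6 of the 8 genes, against 70% of all genes. The B cell markers summed to 3578 CPM in it, above the 1805 to 2024 CPM of the Mr1+/+ samples. The comparisons described here share groups, so their estimates are not independent of each other.

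**Figure D3:**
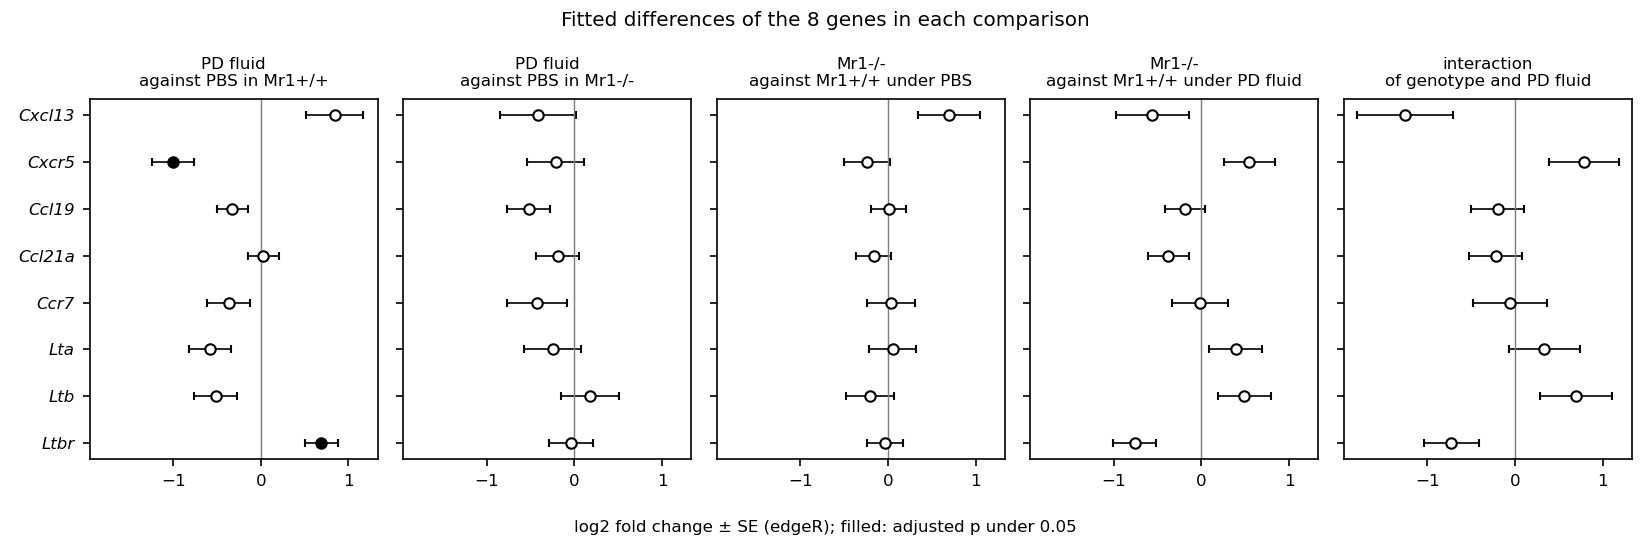
Each panel plots, for 1 of the 5 comparisons, the fitted log2 fold change of the 8 genes on the horizontal axis with bars of ± 1 SE from edgeR, filled where the adjusted p was under 0.05. The filled points are Cxcr5 (-1.0) and Ltbr (0.69) for PD fluid against PBS in Mr1+/+ samples, and no point is filled in the other 4 panels.

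Other genes of the lymphotoxin pathway were read from 6 lists. Of their 78 tested genes, 8 were called higher and 13 lower with PD fluid in Mr1+/+ mice. The shares over all genes were 8.49% and 6.37%. Of 14 tumour necrosis factor family ligands and receptors besides Lta, Ltb and Ltbr, 1 rose and 3 fell with PD fluid in Mr1+/+ mice (median log2 fold change 0.12). Tnfrsf1a, the widely expressed TNF receptor, rose from 114 and 117 CPM to 181, 199 and 215 CPM (0.78, SE 0.14, adjusted p = 0.0153). Tnfrsf14, a receptor of the LTβR ligand LIGHT, fell from 59.5 and 55.7 CPM to 31.0, 30.5 and 25.1 CPM (-1.0, SE 0.15, adjusted p = 0.0124). The B cell survival receptors Tnfrsf13b (-1.0) and Tnfrsf13c (-1.03) fell as well.

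Of 12 genes of the noncanonical NF-κB relay downstream of LTβR, none was called higher and 2 were called lower, with a median of -0.32. Among all genes 8.49% were called higher and 6.37% lower, so none higher of 12 is near that share. Map3k14, the kinase NIK that drives the pathway, went from 116 and 88.2 CPM to 60.2, 70.8 and 60.5 CPM (-0.68, SE 0.16, adjusted p = 0.0293). Traf3, which targets NIK for destruction, went from 183 and 138 CPM to 89.5, 110 and 77.4 CPM (-0.80, SE 0.19, adjusted p = 0.0299). The activator and its brake thus fell together in RNA. Both are also expressed in lymphocytes, whose markers fell in these samples, and the part of those cells was not tested.

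Among 15 tested genes of other positioning cues and receptors, 4 fell and 1 rose, against 6.37% lower and 8.49% higher among all genes. Cxcr4, the receptor of CXCL12, fell from 372 and 271 CPM to 152, 120 and 113 CPM (-1.32, SE 0.22, adjusted p = 0.0135). The lymphocyte receptors S1pr4 (-1.20) and Ccr6 (-1.24) also fell. The 1 gene that rose was Ackr3 (1.49, adjusted p = 0.0209), a scavenging receptor of CXCL12, which was named after its value was seen. Cxcl12 itself measured 486 and 351 CPM under PBS and 464, 447 and 426 CPM under PD fluid, within the range of the PBS samples, and was likewise named after its values were seen.

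The lymphoid stroma and venule list showed the opposite balance, with 5 of 17 genes higher, 2 lower and a median of 0.45. The shares over all genes were 8.49% higher and 6.37% lower. Glycam1, a mucin-like glycoprotein of high endothelial venules, rose from 38.1 and 40.9 CPM to 77.0, 75.7 and 97.3 CPM (1.08, SE 0.19, adjusted p = 0.0150). In the Mr1-/- samples Glycam1 measured 86.0 and 117 CPM under PBS and 45.7 CPM under PD fluid, the reverse order, though its interaction of -2.23 (SE 0.32) had an adjusted p of 0.266. Aldh1a2, the retinoic acid-making enzyme of mesothelium and stroma (0.78, adjusted p = 0.0236), and the fibroblast receptor Pdgfra (0.71, adjusted p = 0.0159) rose. Pdgfrb and Pdpn were the other two that rose (0.77 and 0.78). Cr2, a complement receptor of B cells and follicular dendritic cells, fell from 147 and 105 CPM to 70.7, 70.8 and 66.2 CPM (-0.87, SE 0.17, adjusted p = 0.0208), and Grem1 (-0.74) was the other gene that fell. Madcam1 was not among the called genes, and its levels moved in the direction opposite to Glycam1. In Mr1+/+ mice it measured 49.45 and 31.24 CPM under PBS and 23.81, 24.15 and 27.99 CPM under PD fluid. All 3 PD fluid samples lay below both PBS samples. Madcam1, Pdgfrb, Pdpn and Grem1 were named after their values were seen.

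Of 10 tested genes of lymphoid tissue inducer and other innate lymphoid cells, Nfil3 rose from 9.69 and 12.1 CPM to 16.5, 34.5 and 32.0 CPM (1.35, SE 0.32, adjusted p = 0.0307). Tox (-1.0) and Tcf7 (-1.0), factors of innate lymphoid and T cells, fell. Among all genes 8.49% were called higher and 6.37% lower, so 1 higher of 10 is near that share. The other 4 listed genes did not pass the filter on low counts. Of 10 germinal centre genes none passed the edgeR test, with a median of -0.53. DESeq2 called 1 and edgeR gave 2 a p under 0.05 before adjustment, against 26.5% and 34.1% of all genes. The smallest p belonged to Fas (0.45, adjusted p = 0.0749). In the other 4 comparisons edgeR called none of the 78 tested genes of the 6 lists. DESeq2 called 1 of them for PD fluid in Mr1-/- mice, 2 between genotypes under PBS, 15 between genotypes under PD fluid and 7 for the interaction. At an unadjusted p under 0.05 in edgeR the numbers were 5, 7, 25 and 15. Over all genes the DESeq2 shares were 0.179%, 1.37%, 10.7% and 5.02% in the same order. The edgeR shares before adjustment were 1.5%, 8.64%, 19.1% and 13.2%. The calls for PD fluid in Mr1+/+ mice were mostly lost when PD fluid replicate 2 or 3 was left out, as among all genes. Without PD fluid replicate 3 the medians of the 6 lists kept their signs, from -0.41 for germinal centre genes to 0.56 for stroma and venule genes. In other settings medians near 0 turned sign. That of the positioning cues was 0.02 without PD fluid replicate 2 and 0.01 without Mr1+/+ PBS replicate 2. That of the tumour necrosis factor family was -0.13 without PD fluid replicate 1 and -0.03 without Mr1+/+ PBS replicate 3. Without PD fluid replicate 3 no gene of the 6 lists was called, and without replicate 2 there was 1 each among the tumour necrosis factor family, the positioning cues and the stroma and venule genes. Without Mr1+/+ PBS replicate 3, with 1 sample left in that group, the median of the germinal centre genes was -0.86.

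**Figure D4:**
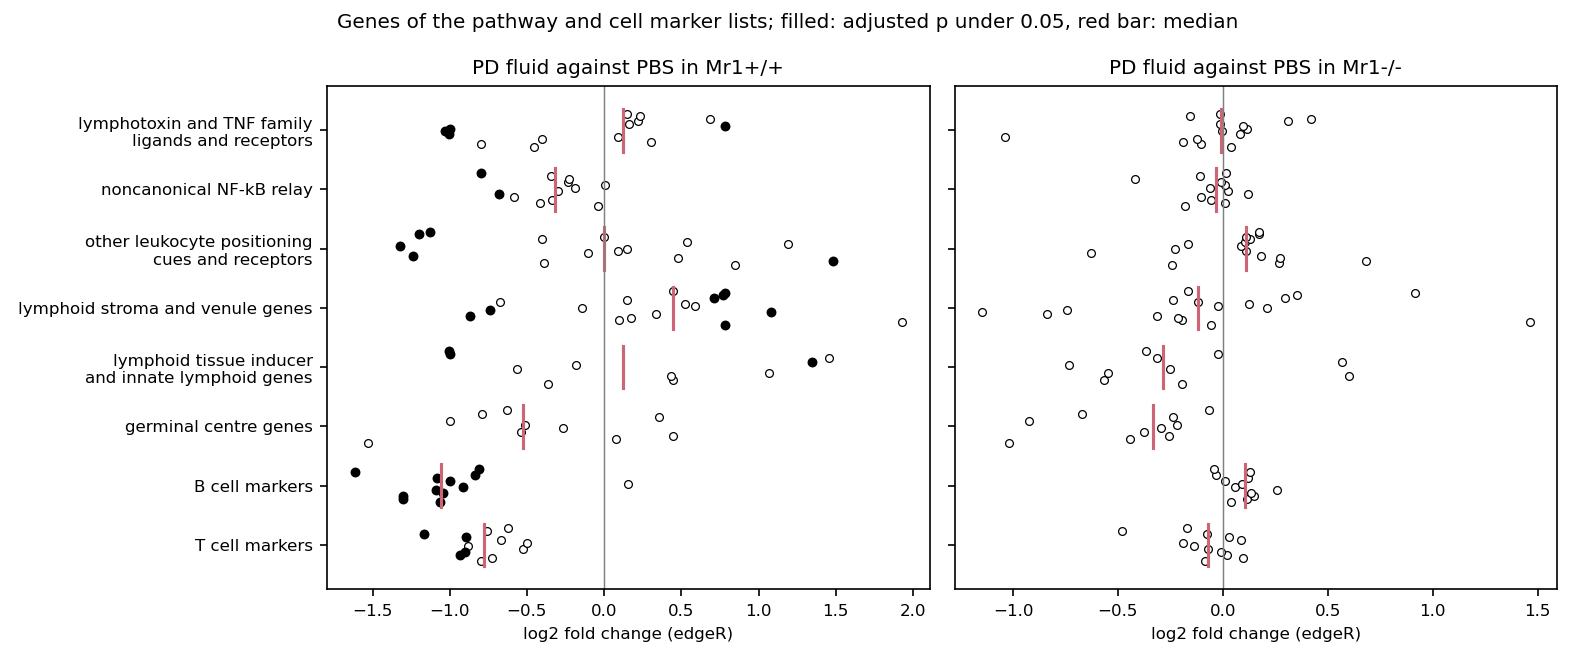
Each point is 1 tested gene of a list (rows, without the 8 genes themselves), at its fitted log2 fold change for PD fluid against PBS, in Mr1+/+ samples on the left and Mr1-/- samples on the right. Filled points have an adjusted p under 0.05 in edgeR, and red bars are list medians. In Mr1+/+ samples 11 of 12 B cell markers lie at filled points below 0, whereas no point is filled in Mr1-/- samples.

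The genes whose pattern over the 8 samples was most like each of the 8 were found by Pearson's r of log2 CPM among 11541 genes with a mean of at least 5 CPM. The points share the 4 groups and the near-identical libraries, so r is a description. Cxcr5 was most like Ddx51 and Sema4d (r = 0.99 for both), and Ltb was most like Ly6d (r = 0.97), a marker of B lineage cells, and Trip13 (0.97). Lta was most like Ftsj3 and Gpatch4 (0.97 for both), and Ccr7 like Ctsw (0.97), a protease of cytotoxic lymphocytes, and Polr3c (0.95). Ltbr was most like Lmna and Kif1c (0.99 for both), Lmna encoding the nuclear lamins A and C. Cxcl13 was most like Tmem158 (0.98) and Samd1 (0.94), Ccl21a like Eif3i (0.97) and C1qbp (0.96), and Ccl19 like Tubb2b (0.94) and Dok1 (0.92). None of the 16 genes is another of the 8.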

How the data were processed

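For 10 libraries of poly-A RNA the authors deposited a table of raw counts, 1 row per gene symbol, without normalization. Per the submitters' processing notes the reads were placed on mm10. The sources used here name no aligner, counter or annotation. Rows sharing a symbol were summed (21899 rows to 21877 symbols), and none of the 8 genes was affected. Columns were matched to samples by name. Near-identical libraries were found by a chi-square over genes with at least 10 summed counts and merged below 5 per gene. Genes were kept with filterByExpr by group (15385), scaled by TMM and compared with the quasi-likelihood test of edgeR 4.0.16 under R 4.3.3 (robust option, a mean for each of 4 groups, 4 residual degrees of freedom before shrinkage), with Benjamini-Hochberg adjustment over all genes. The fit was tested on simulated data. DESeq2 1.42.0, other scaling and filters, separate libraries and leaving out each library were alternatives. Levels are CPM, and log2 CPM used a prior count of 2. Coordinates and exon lengths are from GENCODE M21, whose names matched 97.0% of symbols.

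The 8 genes and all lists were chosen with earlier results of these data known. Named genes are the 8, up to 4 called genes of each pathway list and comparison with the smallest p (up to 2 where none was called), the 2 most alike genes of each, Mr1, Tnf, and examples from the marker lists. Some genes that this rule names, and a planned shorter list of B cell markers, are not reported here. The marker lists for dendritic cells, liver, skeletal muscle and red blood cells were also read. Dendritic cell markers summed to 749 to 1168 CPM over the 8 samples with none called for PD fluid in Mr1+/+ mice. Of 8 liver markers, Alb was called higher in Mr1-/- samples under both treatments (64.1 to 107 CPM against 0.215 to 2.17 CPM). The 8 summed to 88.5 to 146 CPM in the Mr1-/- samples. Their sum was 154 CPM in Mr1+/+ PBS replicate 3 and 1.78 to 5.64 CPM in the other Mr1+/+ samples. Skeletal muscle markers summed to 11.2 to 29.8 CPM.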

Additional observations from a re-analysis of the deposited data

How the results depend on the processing

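With PD fluid in Mr1+/+ mice, 2 of the 8 genes were called, 5 with the 10 libraries as separate samples, which understates the spread if a near-identical pair is 1 sample (Cxcl13, Lta and Ltb were added), 3 in DESeq2, and 0 to 4 when 1 library was left out: 0 without PD fluid replicate 2 or 3, and 4 without Mr1+/+ PBS replicate 3. Between genotypes under PD fluid, 0 were called, but Ltbr was with separate libraries (-0.76, adjusted p = 0.0152) and in DESeq2. Of all genes, 2286 were called with PD fluid in Mr1+/+ mice, against 5549 with separate libraries, 3845 in DESeq2, and 339 and 0 without PD fluid replicate 2 and 3. Separate libraries, DESeq2 and the main fit called 2, 11 and 0 genes with PD fluid in Mr1-/- mice. By genotype they called 50, 211 and 2 under PBS, and 3400, 1036 and 2 in mice given PD fluid. The interaction gave 1490, 488 and 0. Without a filter the genotype counts were 6 and 7, and with only the groups compared 0 and 561. Causes were not tested.

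Whether the shared replicate numbers pair the samples was not settled. Same-numbered libraries deviated together with correlations between -0.13 and 0.15, and differently numbered ones between -0.15 and 0.15. In the Mr1-/- groups the deviations of the libraries mirror each other by construction, so these correlations cannot decide it. With the replicate number as a block, on 10 libraries, 3 of the 8 genes were called with PD fluid in Mr1+/+ mice, 1 between genotypes under PD fluid (Ltbr, adjusted p = 0.0281) and 2 for the interaction (Cxcr5 0.87, adjusted p = 0.0448, and Ltbr -0.80, adjusted p = 0.0385), and of all genes 5537, 2428 and 1915.

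Estimates near 0 turned sign. Ccl21a with PD fluid in Mr1+/+ mice was -0.012 with separate libraries, -0.010 with the block and -0.099 to 0.13 when 1 library was left out. Between genotypes under PBS, Ccl19 was -0.055 with separate libraries, -0.10 with the block, -0.0027 in DESeq2, -0.00058 with RLE size factors, -0.013 without a filter, -0.0021 with only the groups compared and -0.18 to 0.14 without 1 library. There, Lta was -0.037, with the block -0.076, and without 1 library -0.22 to 0.12. Ltbr was 0.035, with the block 0.15, and without 1 library -0.23 to 0.19. Ccr7 was -0.11 with the block and -0.15 to 0.20 without 1 library. Without 1 library, Ccr7 ranged from -0.16 to 0.27 between genotypes under PD fluid and from -0.22 to 0.23 for the interaction (0.027 with the block), and Ltbr from -0.21 to 0.15 with PD fluid in Mr1-/- mice. Relative to Pax5 and Cd79a alone in place of 12 B cell markers, a choice made after seeing the data, the differences were 0.38 for Cxcr5, 0.91 for Ccr7, 0.86 for Ltb and 0.77 for Lta. The Mr1 difference kept its direction and passed in every alternative. Depth did not limit detection of the 8 genes, while the number of samples limits the tests.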
